A study of Homo sapiens with 6 samples.

Results

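Chemokines, chemokine receptors and interleukins were read from 6 arrays of A673 cells, a cell line derived from an Ewing sarcoma. A gene was counted when the RefSeq accession of its probe led to a symbol made of CXCL, CXCR, CCL or CCR and a number, or of IL and a number with an optional A or B, so that interleukin receptor chains were not included. These were 89 genes with 106 probes, of 20503 named genes and 50599 probes on the array. The study put the propeptide of lysyl oxidase (LOX-PP), the fragment cut from the precursor of this collagen-crosslinking enzyme, into these cells and measured RNA in 3 separate experiments. All cells carried the tetracycline repressor (TR) and a doxycycline-inducible lentiviral vector. In A673/TR/LOX-PP cells (3 arrays, called LOX-PP arrays below) the vector encoded the propeptide, and in A673/TR/empty cells (3 arrays, the control arrays) it held no LOX cDNA. The labels state doxycycline at 1 µM for 72 h on all 6 samples, but the study's methods name it clearly only for the A673/TR/LOX-PP cells, so whether the control cells received it is not settled. Stable lines were selected as clones, and which clone gave the RNA is not given in the sources used here, so a difference between the groups cannot be told apart from a difference between clones.

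Chemokines are small secreted proteins that attract cells along a gradient and signal through receptors that couple to G proteins. The CXC and CC families are named for the spacing of their first cysteines, and the CXC ligands that carry the residues ELR before them, such as CXCL1 and CXCL8, attract neutrophils through CXCR1 and CXCR2. CXCL12 signals through CXCR4, a pair that guides the homing of blood stem cells and is widely studied in tumour cell migration. Interleukins are secreted signals first described between leukocytes, and many cell types, tumour cells included, make some of them. IL1A and IL1B both act through the IL-1 receptor and are well known to induce chemokines such as CXCL8 and CXCL1 and the cytokine IL6.

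The values given by array are levels, the log2 signal of a probe over the 75th percentile of its array, and levels are compared between arrays and never between probes. A probe was called well above background from the flag of the scanner software. The share of gene spots that passed this flag lay between 56.9% and 74.8% per array. Negative control spots kept a net signal of 64.4 on LOX-PP replicate 1 and 133 on control replicate 2, but of 408 on control replicate 3 and 575 on LOX-PP replicate 2. LOX-PP replicate 1 was alone on slide 2 and scan 2. All 10 Ewing sarcoma marker genes looked at were well above background on every array. CCK was the only one of them called, lower at 0.31, 0.80 and -0.30 with LOX-PP against 2.60, 3.21 and 2.61 in the controls (limma adjusted p = 0.0100). The single LOX probe was lower, not higher, on every LOX-PP array, but was not called (limma adjusted p = 0.217). Its levels were -0.09, 0.36 and 0.11 in the controls against -0.12, -0.68 and -1.29 with LOX-PP. Whether it lies within the propeptide cDNA is not known. Directions therefore rest on the labels.

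Control replicate 3 stood apart from the other controls in these genes. Of the 34 member probes well above background on all 6 arrays, 10 (29.4%) lay more than 1 log2 unit above both other controls on this array, against 3.28% of all 24720 probes detected on every array. They were the probes of IL1A, IL1B, IL21, CCL2, CCL17 and CCL19, both IL32 probes and 1 probe each of CXCL1 and CXCL2. IL21, CCL17 and CCL19 are dim and follow an order of the arrays that many dim probes share, as given below. The same share among equally dim probes was not taken. On each other array, between 0 and 2 of the 34 stood more than 1 log2 unit above the rest of their group. LOX-PP replicate 1 also stood apart, with 6 of the 34 that far below both other LOX-PP arrays. Over all 24720 probes, 5.49% were that far above and 5.92% that far below on LOX-PP replicate 1. Whether a member probe was called is given below with and without control replicate 3. Values without it are not printed for probes above background on neither control replicate 1 nor 2.

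Fewer of these genes were detected than of genes at large. With the best probe of each gene, 31 of the 89 were well above background on all 6 arrays, 35 on 1 to 5 arrays and 23 on none. Counted by probe, 34 of 106 (32.1%) were detected on every array, compared with 66.5% of all 28174 named probes. The ligands detected throughout included CCL2, CCL24, CCL16, CXCL5, CXCL12 and CXCL14, and the receptors included CXCR3, CXCR4, CCR6, CCR7 and CCR10. For CCL16 and CXCR3 a second probe was detected on no array. The genes detected on no array included the receptors CCR1, CCR2, CCR3, CCR9, CXCR2 and CXCR6, and the T-cell cytokines IL3, IL5, IL9, IL13, IL22 and IL31. Members were detected most often on LOX-PP replicate 1 (67 probes) and control replicate 1 (61 probes) and on 48 to 52 probes of the other 4 arrays.

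**Figure D1:**
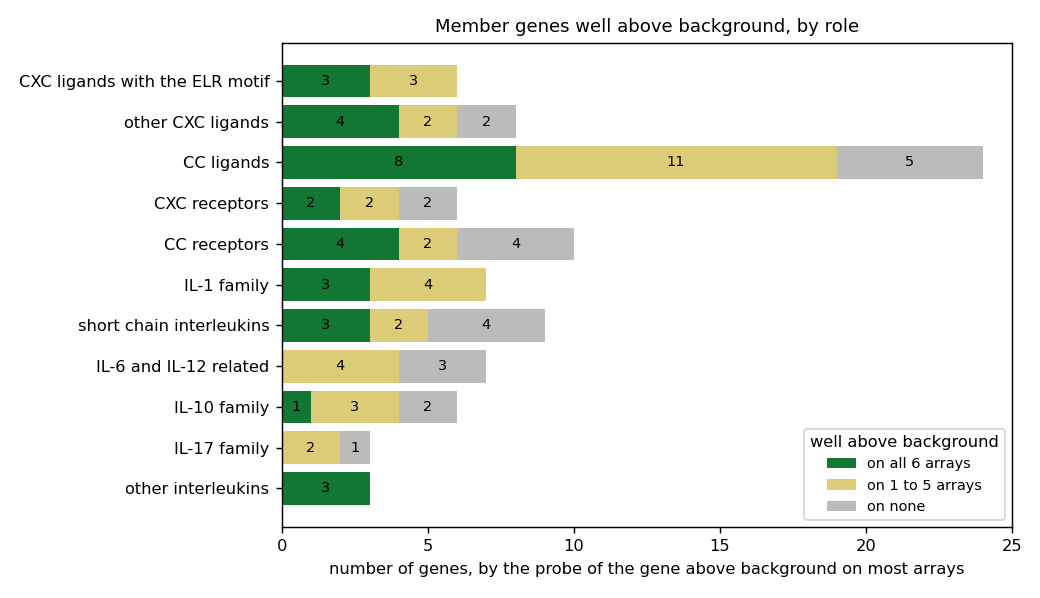
Number of member genes well above background on all 6, on 1 to 5 or on none of the arrays, by role, each gene counted by its best probe. CC ligands are the largest class with 24 genes, 8 of them detected on every array, and no gene of the IL-6 and IL-12 related or the IL-17 class was detected on all 6.

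Levels of 58 member probes (49 genes), those well above background on at least 3 arrays, were compared between the groups with limma, fitted on all 32647 such probes with Benjamini-Hochberg adjustment. Differences are LOX-PP minus control, on the log2 scale, relative to the median difference of 0.13 over all tested probes (-0.03 under quantile normalization). Folds are relative to it too, except that of the CXCL12 probe A_24_P412156, which is not corrected for it. The probes of CXCR4, IL1B and IL6 and both of the CXCL12 probes described first below were higher on the LOX-PP arrays, and that of CXCL14 was lower. These 6 of 58 stand beside 1849 of all 32647 tested probes (5.66%), and the 5 higher beside 1080 (3.31%). A CXCL12 probe among the 6 entered the test through the LOX-PP arrays alone, where it was high. Quantile normalization called 1891 probes, of which 48.0% were higher, in place of 58.4%. Among the 34 member probes detected on all 6 arrays, 4 were called, against 4.88% of all such probes, and in 12 of the 34 the groups did not overlap (35.3%), against 31.3% of all. The median difference of the tested members was 0.36, and 42 of the 58 lay above the median of all probes. Of the 58, 36 were dim, with every level under -2, and some passed the filter only through arrays where they were high. Among probes detected on all 6 arrays, the median was 0.31 for members and -0.06 for all, with a standard deviation of 0.68 over all.

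CXCR4, the receptor of CXCL12, had levels of 0.05, 0.11 and 0.73 in control replicates 1 to 3 and of 2.56, 3.42 and 3.78 in LOX-PP replicates 1 to 3. Every LOX-PP array lay above every control array, and control replicate 3 was the highest control. The difference was 2.83 ± 0.37 (SE, n = 3 per group), or 7.12-fold, with an adjusted p = 0.00763. Without control replicate 3 it was 2.98 (adjusted p = 0.0141). The call held in 13 of 16 alternatives and was lost in the methods' t-test (adjusted p = 0.0675) and without control replicate 1 (adjusted p = 0.0543) or 2 (adjusted p = 0.0520), where the difference stayed at 2.72 and 2.80.

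CXCL12, its ligand, had 4 probes for 3 of its transcript forms, and they did not move alike. The probe of the form known as alpha, A_23_P202448, gave -3.88, -4.23 and -3.99 in the controls and -1.53, 0.03 and -1.01 with LOX-PP. The controls lay close together, and all 3 LOX-PP arrays were above them with a wider spread. The difference was 3.07 ± 0.40 (SE), or 8.37-fold (adjusted p = 0.00777; 0.0246 without control replicate 3). It was lost in 2 of 16 alternatives, the methods' t-test (adjusted p = 0.0705) and without control replicate 2 (adjusted p = 0.0524).

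The probe of the beta form, A_24_P412156, passed the background flag on none of the control arrays and on all 3 LOX-PP arrays, so that it entered the test through the LOX-PP arrays alone. Its levels were -8.08, -7.74 and -6.10 against -3.15, -3.05 and -4.07 (adjusted p = 0.0127). Against the lowest level well above background on each control array, the LOX-PP mean was 7.96-fold higher, which is no firm minimum. The log2 difference was 3.76 in the main fit and only 1.25 with a common floor. Without control replicate 1 or 2 the adjusted p was 0.0630 and 0.0714, and as the probe could pass the filter only where it was high, the call is no separate support. The remaining 2 probes carry the accession of the gamma form and did not pass the threshold. A_33_P3712341 gave -2.95, -3.26 and -3.16 against -2.35, -2.20 and -2.40, a difference of 0.68 with groups that do not overlap (adjusted p = 0.0756), and A_33_P3372840 ran from -5.03 to -3.94 against -5.18 to -4.51 with overlapping groups (adjusted p = 0.877). ACKR3, a scavenging receptor that also binds CXCL12 and whose symbol is outside the rule, had levels of -3.52, -3.28 and -5.11 against -0.74, -0.56 and -3.72. Its LOX-PP replicate 3 lay below control replicates 1 and 2, and the difference of 2.17 did not pass the threshold (adjusted p = 0.210).

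**Figure D2:**
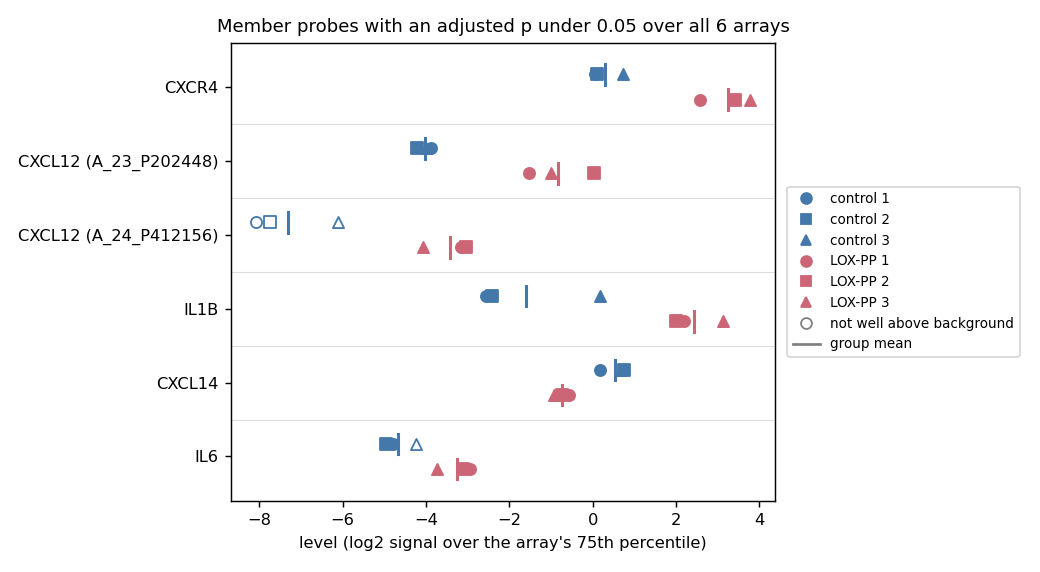
Levels (log2 signal over the 75th percentile of the array) of the 6 member probes with an adjusted p under 0.05, by array, with open symbols where the probe was not well above background and a bar at each group mean. In all 6 the groups do not overlap, and for IL1B control replicate 3 lies between the other controls and the LOX-PP arrays.

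IL1B, a secreted form of interleukin 1 that drives inflammation, gave -2.57, -2.41 and 0.18 in the controls and 2.20, 2.00 and 3.13 with LOX-PP. The groups do not overlap, but control replicate 3 was 2.67 above the mean of the other controls. The difference was 3.91 ± 0.75 (SE), or 15.0-fold (adjusted p = 0.0292), and without control replicate 3 it was 4.73 (adjusted p = 0.00402). Leaving out any other single array ended the call, with an adjusted p of 0.126 and 0.132 without control replicates 1 and 2 and 0.0553, 0.0698 and 0.0866 without LOX-PP replicates 1, 2 and 3. The call held in 8 of 16 alternatives, and the difference stayed between 3.44 and 4.73 over all of them.

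IL6, a cytokine that signals through gp130 and STAT3, was near the lower end of detection. Its levels were -4.79, -4.97 and -4.25 on the control arrays, the last not well above background, and -2.94, -3.12 and -3.73 on the LOX-PP arrays. All LOX-PP arrays were higher, by a difference of 1.28 ± 0.31 (SE) or 2.42-fold (adjusted p = 0.0483). The call held in 3 of the 15 alternatives that tested this probe. It rested on every array, since leaving out any 1 of them ended it (adjusted p from 0.0521 to 0.215, and 0.0550 without control replicate 3). It was also lost under quantile normalization (adjusted p = 0.0936), normexp, no filter on dim probes, either block and the methods' t-test.

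CXCL14, a CXC chemokine made by many epithelia and known for its loss in several carcinomas, was the member that fell. It gave 0.18, 0.75 and 0.68 in the controls and -0.56, -0.74 and -0.93 with LOX-PP, with no overlap and a narrow spread in the LOX-PP group. It fell by 1.41 on the log2 scale (SE 0.25, adjusted p = 0.0322), a 2.66-fold lower level. The call was kept without LOX-PP replicate 1 (adjusted p = 0.0373) and lost without any other single array (adjusted p from 0.0848 to 0.159, and 0.0926 without control replicate 3). It held in 8 of 16 alternatives, while the difference stayed between -1.59 and -1.24.

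Of the ELR chemokines, limma called 0 of 7 tested probes over all 6 arrays (6 at an unadjusted p under 0.05, as were 21.3% of all tested probes), and so did the methods' t-test (1 unadjusted). Their median difference was 2.67, the value of a CXCL2 probe not above background on control replicates 1 and 2, which moved to 1.13 with normexp and 0.53 with a common floor. CXCL1, CXCL2, CXCL3 and CXCL8 attract neutrophils and lie together on chromosome 4 with CXCL5 and CXCL6. CXCL1, probe A_23_P7144, gave -5.77, -5.07 and -2.70 in the controls and 0.37, -1.50 and -1.37 with LOX-PP. All LOX-PP arrays were above all controls, with a difference of 3.55 ± 0.86 (SE, adjusted p = 0.0584), and 4.39 without control replicate 3 (adjusted p = 0.0167). With all 6 arrays it passed the threshold under normexp (adjusted p = 0.0493) and with the filter on all 6 arrays (adjusted p = 0.0356). Its second probe, A_33_P3330264, differed by only 0.97 (adjusted p = 0.174; 0.146 without control replicate 3). The transcripts of CXCL1, CXCL2 and CXCL3 are near-identical in places, and probe sequences were not used here, so signal shared between these 3 genes was not tested.

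CXCL8, also called interleukin 8, was not well above background on control replicates 1 and 2, with -8.37 and -7.85, and was at -2.81 on control replicate 3. The LOX-PP arrays gave -1.68, -3.68 (not well above background) and -2.79, so that control replicate 3 lay among them. Over all 6 arrays the adjusted p was 0.206, and no size is given because 3 of the arrays were not above background. CXCL3 likewise rose above background on control replicate 3, with -8.36, -7.84 and -3.84 against -3.44, -3.98 (not well above background) and -2.98, and an adjusted p of 0.162. For CXCL2, probe A_23_P315364 gave -8.26, -7.75 and -3.88 against -3.61, -3.84 (not well above background) and -4.06 (adjusted p = 0.194). Its probe A_24_P257416 gave -4.29, -4.69 and -2.68 against -2.72, -2.65 and -2.58 (adjusted p = 0.219; 0.0217 without). CXCL5 was at -0.05, -0.04 and -0.42 against -0.16, -0.48 and -0.68, with overlapping groups, a difference of -0.39 (95% interval -0.96 to 0.17) and an adjusted p of 0.571. CXCL6 was well above background on LOX-PP replicate 2 only.

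The promoters of these neighbours are shown because 10 members share a short motif there. In the 250 bases upstream of the start, 10 of the 66 members with a RefSeq window (GRCh38.p14) hold GGANTTTCC on either strand, where overlapping matches were counted and N is any base. These letters are a form of the binding site of NF-kappaB, the transcription factor family that IL-1 activates. The share is 15.2% of member windows and 1.47% of 27305 windows of all genes, 1 window a gene. They are CXCL1, CXCL2, CXCL3, CXCL5, CXCL6, CXCL8, CXCL10, CXCL11, IL6 and IL32. Those from CXCL1 to CXCL8 in this list are neighbours on chromosome 4. The windows of CXCL1, CXCL2 and CXCL3 are nearly the same sequence, so the matches are not independent and the shares are not a like comparison. The motif was chosen with the values known, and a match is only a match of letters. In the windows below, which run from base -120 to base -41 relative to the start on the strand of the gene, capitals mark the motif.
CXCL1 (chr4:73869273-73869352, plus strand): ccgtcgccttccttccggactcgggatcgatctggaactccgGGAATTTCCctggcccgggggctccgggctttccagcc
CXCL2 (chr4:74099236-74099315, minus strand): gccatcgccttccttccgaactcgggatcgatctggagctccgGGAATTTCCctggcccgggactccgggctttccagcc
CXCL3 (chr4:74038730-74038809, minus strand): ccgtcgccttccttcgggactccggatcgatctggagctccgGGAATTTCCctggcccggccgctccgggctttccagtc
CXCL8 (chr4:73740449-73740528, plus strand): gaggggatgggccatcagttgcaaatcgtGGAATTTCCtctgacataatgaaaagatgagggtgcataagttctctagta
CXCL5 (chr4:73998718-73998797, minus strand): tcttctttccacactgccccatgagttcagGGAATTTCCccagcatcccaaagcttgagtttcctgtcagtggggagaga
IL6 (chr7:22727080-22727159, plus strand): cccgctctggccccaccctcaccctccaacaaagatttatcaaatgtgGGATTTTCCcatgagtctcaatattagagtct
IL32 (chr16:3065283-3065362, plus strand): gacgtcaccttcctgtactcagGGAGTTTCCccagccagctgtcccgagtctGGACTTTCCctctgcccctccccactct

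CXCL1, CXCL2 and CXCL3 hold it at nearly the same place, 78, 77 and 78 bases before the start, and CXCL8 holds it at 91, CXCL5 at 90 and IL6 at 72 bases. IL32 holds it at 98 and again at 68 bases. CXCL5 and CXCL6 carry the same 9 letters as CXCL8 in the sense direction. The windows of CXCR4, CXCL12, IL1A, IL1B and CCL20 hold no match. Members for which no window was at hand included CCL2, CCL4, CCL5, CCL11, CCL14, CCL16, CCL17, CCL21, CCR7, CCR8, CCR10, CXCL16, IL5, IL7, IL15, IL18, IL22, IL25, IL27, IL31, IL34 and IL36B.

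IL32, an inflammatory cytokine found in humans but not in mice, showed the widest gap between control arrays. Its probe A_23_P15146 gave -2.51, -3.08 and 2.89 in the controls and 2.79, 1.39 and 2.40 with LOX-PP. Control replicate 3 was the highest of the 6 arrays, 5.69 above the mean of the other controls. The difference was 2.96 ± 1.49 (SE, adjusted p = 0.286) over all arrays and 4.79 ± 0.47 (SE, adjusted p = 0.00575) without that array. The second probe, A_33_P3346826, also had its highest level there, with -2.95, -3.40 and 1.80 against 1.28, 0.30 and 1.36 (adjusted p = 0.320; 0.00661 without control replicate 3).

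IL1A, the cell-associated relative of IL1B, gave -3.70, -3.48 and 0.13 against -1.50, -1.03 and 0.06, again with control replicate 3 the highest (adjusted p = 0.442; difference 2.57 and adjusted p = 0.0369 without it). CCL20, the ligand of CCR6, was not well above background on control replicates 1 and 2 (-6.33 and -5.89) and was at -3.09 on control replicate 3, beside -3.26, -3.65 and -3.44 on the LOX-PP arrays, the second of these not well above background, so that control replicate 3 was again the highest (adjusted p = 0.287). CXCL10, an interferon-induced ligand of CXCR3, gave -6.00, -6.73 and -3.84 against -4.30, -3.34 and -3.09 with probe A_24_P303091 (adjusted p = 0.192), the first pair of levels not well above background. Its other probe, A_33_P3343175, overlapped between the groups, from -5.49 to -3.69 against -4.60 to -2.92 (adjusted p = 0.605).

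**Figure D3:**
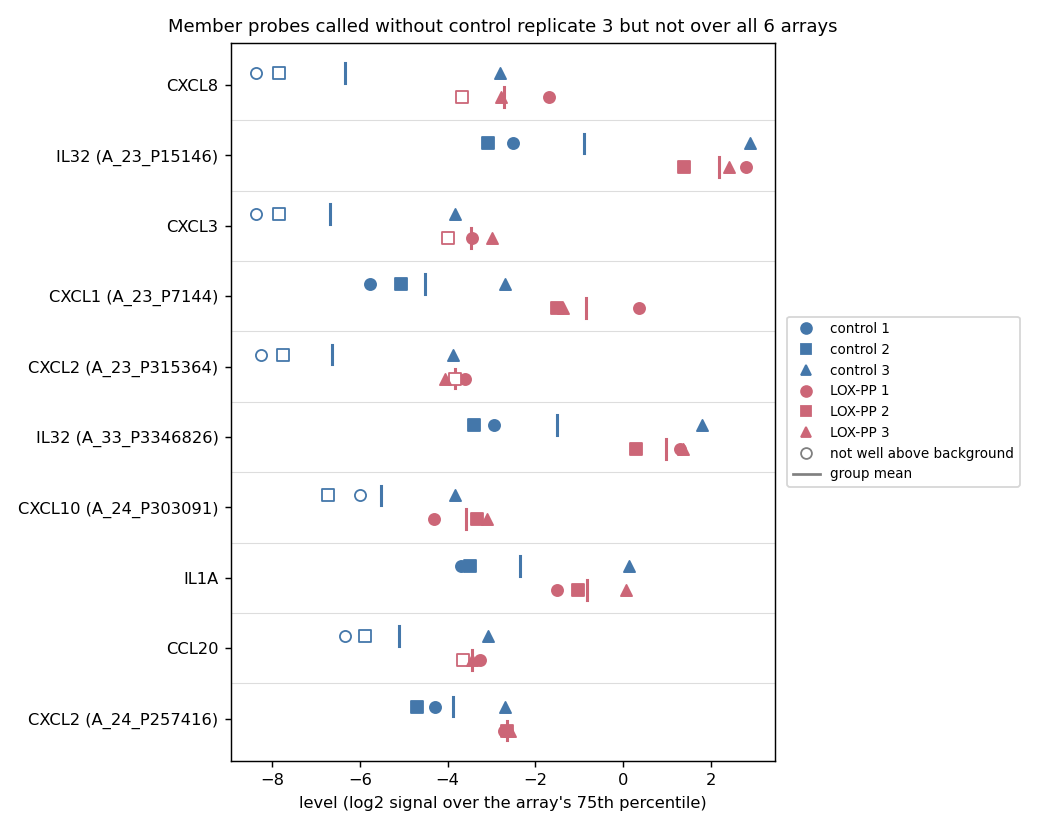
Levels (log2 signal over the 75th percentile of the array) of the 10 member probes that passed the threshold without control replicate 3 and not over all 6 arrays with the same settings, by array, with open symbols where the probe was not well above background and a bar at each group mean. In every one of them control replicate 3 lies above control replicates 1 and 2, and for IL32, IL1A and CCL20 it is the highest array.

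Without control replicate 3, 14 of the 58 member probes (11 genes) passed the threshold, all of them higher on the LOX-PP arrays. Of all tested probes, 2.66% were called in that direction. Control replicate 3 was picked out for its high levels in these same genes, so this count is no separate support. Of these 14 probes, 4 were also called over all 6 arrays, those of CXCR4 and IL1B and the alpha and beta probes of CXCL12. Of the 14, 8 were above background on all 6 arrays, those of CXCR4, IL1A and IL1B, both of IL32, and 1 each of CXCL1, CXCL2 and CXCL12. The other 6, of CXCL2, CXCL3, CXCL8, CXCL10, CXCL12 and CCL20, were above background on neither control replicate 1 nor 2. The filter still counted control replicate 3, and those of CXCL2, CXCL3, CXCL8 and CCL20 passed it only through that array and 2 LOX-PP arrays. These 6 could pass only through arrays where they were high, so their calls are no support. In 12 of the 14, control replicate 3 was more than 1 log2 unit above both other controls, and in 9 it reached or passed the lowest LOX-PP array. CXCR4 and the CXCL12 alpha probe were the exceptions, with control replicate 3 at 0.65 and 0.06 above the mean of the other controls. The remaining control group then has 2 arrays. What set control replicate 3 apart was not tested.

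**Figure D4:**
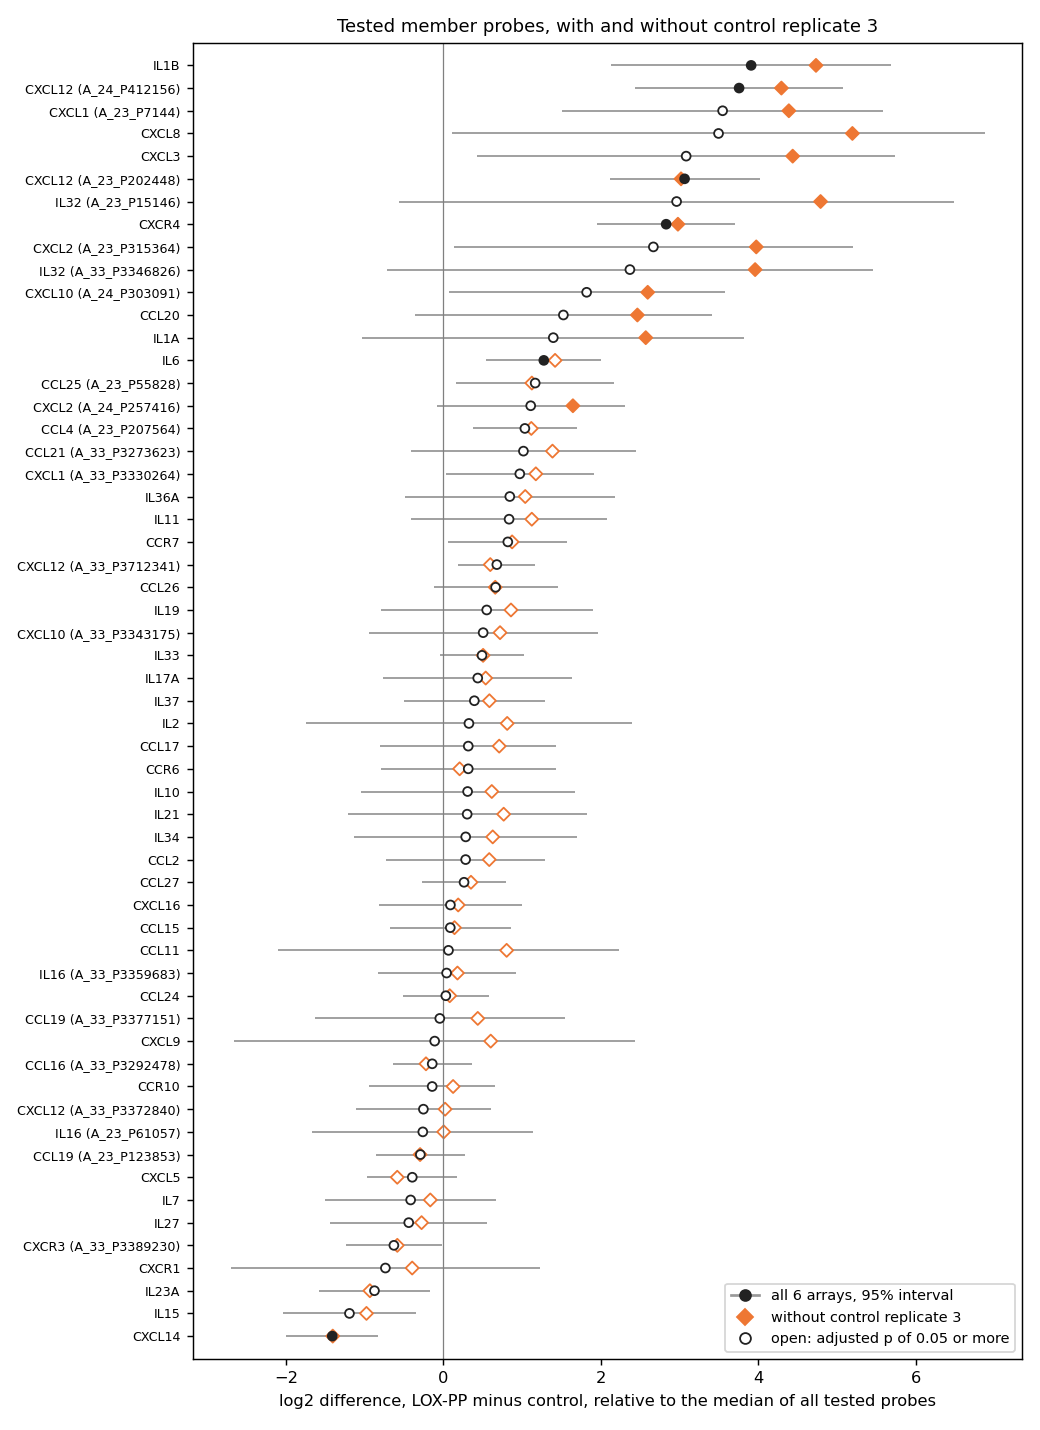
Log2 difference (LOX-PP minus control, relative to the median of all tested probes) of 57 of the 58 tested member probes over all 6 arrays, with its 95% interval, and without control replicate 3, where filled symbols have an adjusted p under 0.05. The diamonds of IL32, CXCL8, CXCL3 and IL1A lie well to the right of their circles, whereas those of CXCR4, CXCL14 and the CXCL12 probe A_23_P202448 lie close to them. For CXCL8, CXCL3, CCL20 and the CXCL2 probe A_23_P315364 the values rest on arrays not above background.

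Limma called 0 of the 14 tested CC ligand probes over all 6 arrays (3 at an unadjusted p under 0.05, against 21.3% of all tested probes), and so did the methods' t-test (1 unadjusted). CCL2, which attracts monocytes, was at 2.50, 2.65 and 3.67 in the controls and 3.29, 3.97 and 2.80 with LOX-PP, with overlapping groups and a difference of 0.28 (95% interval -0.72 to 1.29; adjusted p = 0.629). CCL24, an eotaxin, stayed within 2.01 to 2.46 against 2.25 to 2.63, and CCL16 within 0.14 to 0.53 against 0.23 to 0.39. CCL4, a chemokine that attracts monocytes and T cells, had groups that do not overlap at -4.45, -4.78 and -4.17 (the last not well above background) against -3.62, -2.93 and -3.37, and a difference of 1.04 that did not pass the threshold (adjusted p = 0.0617). Nor did those of CCL25 (1.17; adjusted p = 0.141) and CCL26 (0.66; adjusted p = 0.234). Without LOX-PP replicate 1, which was alone on its slide, these probes of CCL4 and CCL25 did pass it (adjusted p = 0.0476 and 0.0332). A second probe of CCL4 and a second probe of CCL25 were above background on none of the 6 arrays. CCL5, CCL3 and CCL8 were each above background on a single array.

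Among the receptors CXCR4 alone was called. CXCR3, the receptor of CXCL9, CXCL10 and CXCL11, gave -1.01, -1.25 and -0.80 against -1.84, -1.18 and -1.55, with overlapping groups and a difference of -0.63 (adjusted p = 0.315). CCR7, which guides lymphocytes to lymph nodes, differed by 0.82 (adjusted p = 0.150), with levels of -2.82, -2.82 and -2.46 against -1.33, -1.56 and -2.37. CCR6, the receptor of CCL20, reached 0.53 on LOX-PP replicate 1 and lay between -1.35 and -0.76 on the other 5 arrays. CXCR1 was above background on 5 arrays, with overlapping groups (adjusted p = 0.722), and CXCR2 on none.

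Of the remaining interleukins, IL15, which supports natural killer cells, was lower on every LOX-PP array, at -2.30, -1.90 and -1.25 against -3.40, -2.57 and -2.69, but the difference of -1.19 did not pass the threshold (adjusted p = 0.149). IL33, an alarmin of the IL-1 family, was higher on every LOX-PP array by 0.49 (adjusted p = 0.179), and IL23A differed by -0.87 with overlapping groups (adjusted p = 0.213). The dim members shared an order of the arrays that the groups do not explain. Of the 36 tested member probes with every level under -2, 22 were lowest on control replicate 2 or LOX-PP replicate 1 and highest on control replicate 3 or LOX-PP replicate 2, the arrays with the lowest and the highest signal of the negative control spots, and 53.8% of all probes as dim were so too. IL10, IL21, IL34 and CCL17 are examples, all with overlapping groups.

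**Figure D5:**
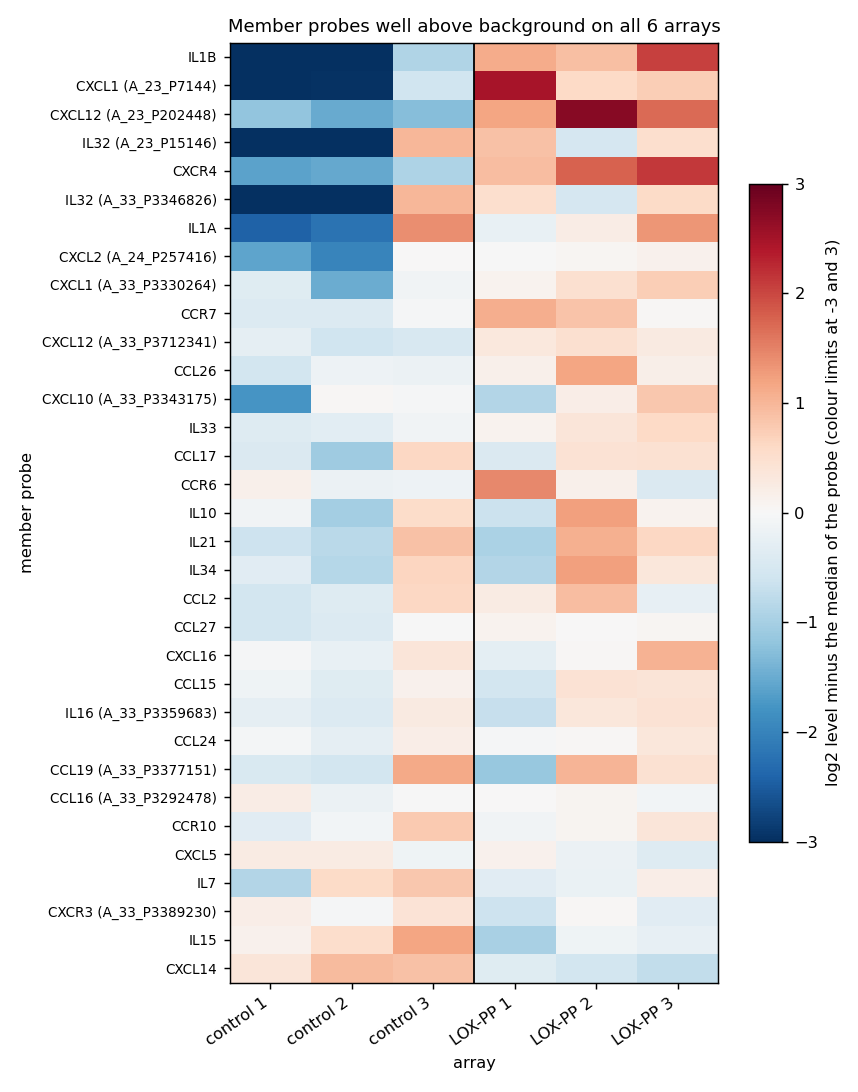
Levels of 33 of the 34 member probes well above background on all 6 arrays, each minus its median over the arrays (log2 units, colour limits at -3 and 3), ordered by the difference between the groups. Control replicates 1 and 2 are low and control replicate 3 is high for IL32, IL1A and the upper CXCL2 row, all 3 controls are low for CXCR4 and CXCL12 (A_23_P202448), and CXCL14 at the foot runs the other way.

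Of 47 tested probes of interleukin receptor chains, the genes through which many of these ligands act, 2 were higher and 1 lower, with a median difference of 0.21. For this list and those that follow, the share of called probes among all tested is again 5.66%. IFNLR1, a receptor chain for type III interferons that pairs with the IL10RB chain, gave -3.43, -4.13 and -3.21 against -1.61, -1.22 and -0.42, a difference of 2.38 (adjusted p = 0.0164). IL27RA, a receptor chain of IL27, gave -0.60, -0.68 and 0.18 against 1.67, 1.36 and 1.21, a difference of 1.66 (adjusted p = 0.0211). IL17RD, a receptor-like protein known to restrain growth factor signalling, gave -2.09, -1.79 and -2.89 against -5.22, -4.92 and -3.79, 1 of the last 3 not well above background, and fell by 2.51 (adjusted p = 0.0317). In each of these 3 the groups do not overlap, and all 3 passed the threshold without control replicate 3. IL1R1, the receptor of IL1A and IL1B, was at -5.95 to -5.37 against -5.57 to -4.85 with its brighter probe, which was above background on 3 of the 6 arrays (adjusted p = 0.533).

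Of 24 tested probes of JAK, STAT and SOCS genes, 2 were higher and 1 lower, with a median of -0.03, against the same 5.66%. SOCS2, a feedback inhibitor of cytokine receptors, gave 0.44, 0.63 and 0.37 against -2.39, -1.84 and -2.04. It fell by 2.69 on the log2 scale (adjusted p = 0.00254), with no overlap, and passed the threshold in all 16 alternatives. STAT3, the transcription factor downstream of IL6, was higher with probe A_24_P116805 at -0.12, -0.34 and -0.24 against 0.80, 1.17 and 1.15 (difference 1.15, adjusted p = 0.0213; 0.0618 without control replicate 3), and its other probe differed by 0.90 without passing the threshold (adjusted p = 0.0808). JAK3 was higher by 1.57 with 1 of its probes (adjusted p = 0.0447; 0.0622 without control replicate 3).

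Among 18 tested probes of interleukin-type ligands with other symbols, 2 were lower and none higher (5.66% of all tested probes were called), with a median of 0.25. IL17D, a cytokine of the IL-17 family, fell by 1.50 from 0.25, 0.33 and -0.05 to -1.37, -1.07 and -1.14 (adjusted p = 0.0180), and TXLNA, once named interleukin 14, fell by 1.26 (adjusted p = 0.0294). Among 9 tested probes of chemokines and receptors with other symbols, 0 were called by limma (1 at an unadjusted p under 0.05) and 0 by the methods' t-test, with a median of 0.37. Without control replicate 1, or without control replicate 2, SOCS2 was the only 1 of the 8 calls in these lists that was left, and without LOX-PP replicates 2 and 3 there were 3 and 4. Leukocyte markers were looked at because leukocytes make many of these genes. Of 7 leukocyte marker genes with a named probe, 6 were above background on all 6 arrays by their best probe, as were 69.2% of all named genes. PTPRC was among them by its brightest probe, while its other probes were above background on 1 array or on none. The summed signal of the leukocyte markers used the brightest probe of each gene, with the 75th percentile of the array as 1. It ran from 0.690 to 0.912 in the controls and from 0.820 to 1.60 with LOX-PP. ITGAM was the only leukocyte marker called, higher by 1.19 (adjusted p = 0.0313, past the threshold in 7 of 16 alternatives). The pan-leukocyte marker PTPRC was not called (difference 0.05, adjusted p = 0.839). Of endothelial and epithelial marker genes, 2 of 3 and 3 of 4 were above background on all 6 arrays. The endothelial sum ran from 0.219 to 0.289 in the controls and from 0.299 to 0.514 with LOX-PP. Its probe with the smallest p, of PECAM1, differed by 1.23 without passing the threshold (limma adjusted p = 0.0955). The epithelial sums overlapped, at 57.8 to 59.3 against 45.4 to 68.7. The part of these marker signals in the differences above was not tested.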

How the data were processed

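Total RNA of 3 A673/TR/empty and 3 A673/TR/LOX-PP samples was labelled with Cy3 and measured on 1-colour Agilent SurePrint G3 arrays. The authors deposited spot intensity from Agilent Feature Extraction (version 10.7 per the submitters' processing notes), with a background-corrected signal and quality flags. A deposited table of log2 values matches this signal scaled by the array's 75th percentile and centred per probe, within 0.02 for 50528 probes. How the authors normalized is not given in the sources used here.

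Spots of control probes and spots marked as outliers were dropped. The log2 corrected signal was averaged per probe, and each array's 75th percentile was then taken off. A probe counted as above background if any of its spots was. The 32647 probes above it on at least 3 of 6 arrays were tested with limma (version 3.58.1, R 4.3.3) at a Benjamini-Hochberg adjusted p under 0.05, and members were read from that table. Where a group was above background on no array, the fold compares the bright group's mean level with a mean over the dim arrays. For each dim array it takes the higher of the probe's own level and the lowest level well above background there. Probes brighter than that lowest level failed the flag on some arrays, so the fold is no firm minimum. With 3 arrays per group, their number limits the precision. Accessions of 28174 of the 50599 probes were named through a RefSeq table, whose assembly differs from the array design's, so no coordinates were taken from it. Promoter windows came from RefSeq, GRCh38.p14. Only the limma fit was tested on simulated data, with independent noise and no outlying array.

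The members, the related lists and the markers were chosen with earlier results of these data known, and so was the motif. Named genes are the called members, those above background on all arrays of 1 or both groups, the 10 tested probes with the smallest p, disagreeing probes of 1 gene, and in related lists the called genes and up to 5 with the smallest p. Others, such as CXCL8, CCL20, CXCR1 and IL1R1, were chosen after their values were seen. Alternatives were quantile normalization, the median of detected probes, normexp background correction (offset 50), the authors' values, other filters on dim probes, a common floor, the slide or the replicate number as a block, the methods' t-test, and leaving out each array. Protein sequences were not used here, and 1 member gene is counted but not reported here.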

Additional observations from a re-analysis of the deposited data

How the results depend on the processing

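The count of member probes past the threshold was 6, and between 5 and 6 under quantile normalization, the median of detected probes, normexp, the authors' values, the filter on all 6 arrays, the common floor and the slide block. The members were not the same throughout: quantile normalization lost IL6, normexp lost IL6 and gained CXCL1, the filter on all 6 arrays left IL6 and the CXCL12 beta probe untested and gained CXCL1, and the slide block lost IL1B and IL6 and gained CCL4 and CCL25. It was 2 with no filter on dim probes (516 of all probes, 1 of the related lists), 3 with a replicate block (860 of all probes, 2 of the related lists), and 0 in the methods' t-test, where 11 member probes had an unadjusted p under 0.05 (566 of all probes and 4 of the related lists after adjustment). Leaving out 1 array gave 0 to 14 members, 407 to 2062 of all probes and 1 to 7 of the related lists. The 14 came without control replicate 3, 1 without control replicate 1, 0 by limma without control replicate 2 (10 at an unadjusted p under 0.05), and 3 each without LOX-PP replicate 2 or 3. The deviations of equal replicate numbers from their group means correlated at 0.27, -0.39 and 0.23. Control replicate 2 with LOX-PP replicate 1, and control replicate 3 with LOX-PP replicate 2, each correlated at 0.39. These are the arrays with low and with high negative control signal, so the check cannot settle whether the numbers pair the arrays. The slide block equals leaving out LOX-PP replicate 1, which was alone on its slide. Every member difference printed in the report kept its sign under every alternative. Of 38 named tested probes, 14 changed sign under at least 1 alternative, all with an adjusted p of at least 0.605, and their differences are not printed. The related lists gave 8 calls over all arrays. The size of the CXCL12 beta probe depended on the treatment of background, at 1.76 with normexp and 1.25 with the common floor in place of 3.76, since it was not above background on the control arrays. For CXCL8, CXCL2, CXCL3 and CCL20 the same limit holds on control replicates 1 and 2.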

Other observations

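Some members were well above background on a single array, with no group to compare. CCL8, a ligand of CCR2, was at -3.77 on control replicate 2 and not well above background on the other 5 arrays, where it lay between -8.30 and -5.20. The IL16 probe A_24_P73599 was above background on the same array only, at -2.87 against -6.57 to -4.56 elsewhere, while the IL16 probe A_33_P3359683 was above it on all 6 arrays. CXCR5, the receptor of CXCL13, was at -3.31 on LOX-PP replicate 1 alone. IL4 and IL26 were also above background on that array alone, the array with the lowest negative control signal.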
